A study of Rattus norvegicus with 12 samples.

Results

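Brown and beige adipocytes are fat cells that burn fatty acids to make heat, and 8 genes associated with them were examined in the mammary gland of ovariectomized rats: Ucp1, Cidea, Ppargc1a, Dio2, Elovl3, Prdm16, Cpt1b and Ppara. For each gene, the probe set that carries its symbol alone was taken from the array table, and the one with the highest mean intensity would have been kept where there were several. Of the 8 genes, 6 had such a probe set, 1 each, out of 14506 genes with a probe set of their own. Cidea and Prdm16 had none in the annotation used and were not analysed here. Ucp1, Ppargc1a, Cpt1b and Ppara lay above the filter on low signals and were tested, whereas Dio2 and Elovl3 lay below it.

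RNA of mammary gland tissue was hybridised to 12 Affymetrix Rat Gene 1.0 ST arrays, 1 per rat. Female Lewis rats were ovariectomized at about 10 weeks of age, kept for 14 days and then treated subcutaneously 3 times at intervals of 24 hr, with tissue taken 24 hr after the last treatment. The groups of 3 rats each received E2 + 3-MC, E2 (17β-estradiol, 4 µg/kg body weight per day, the ligand of the estrogen receptor), 3-MC (3-methylcholanthrene, 15 mg/kg body weight per day, a ligand of the aryl hydrocarbon receptor, AHR) or vehicle, and all 4 groups therefore lacked ovarian hormones. The study asked how AHR activation changes the response of the gland to E2, and here the same comparisons were made for the thermogenic genes.

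Brown adipocytes carry many mitochondria, and UCP1 in the inner mitochondrial membrane lets protons flow back without ATP synthesis, so that the energy is released as heat. Beige adipocytes are cells with the same equipment that appear within white fat depots, and the rodent mammary fat pad is a white, subcutaneous depot in which they are known to arise. Noradrenaline acting on β-adrenergic receptors switches the program on through cyclic AMP. Several of its genes, among them Cpt1b, Ppargc1a and Ppara, are also used by skeletal muscle, which burns fatty acids as well.

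The values are signal intensities on a linear scale as the PLIER algorithm gives them, and they serve to compare rats for 1 probe set, not different probe sets with each other. Differences between groups were tested on log2(intensity + 16) with limma in 1 model of the 4 groups, with Benjamini-Hochberg adjustment over all 23371 probe sets above the filter. A probe set passed at an adjusted p under 0.05 together with a difference of at least 1.5-fold, and a log2 change is the first-named group minus the second. Fold and log2 changes are on this log2(intensity + 16) scale, which understates the ratio of intensities of weak probe sets. The E2 main effect is the mean of 2 differences, E2 minus vehicle and E2 + 3-MC minus 3-MC. In whole tissue, fewer cells of a type and less RNA per cell cannot be told apart. With 3 rats in each of 2 groups, the smallest p that an exact permutation test allows is 0.1, so single probe sets were judged from the fit across all of them.

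The tissue carried the markers of a fat pad with epithelium. Adipoq, the gene of the adipocyte hormone adiponectin, had intensities of 2765 to 4347 across the 12 arrays, and Krt18, a keratin of luminal epithelium, 841 to 2153. Median intensities of the arrays were 85.7 to 109.5. Of the 12 arrays, 4 stood apart by their skeletal muscle genes: rats 1 and 2 of the 3-MC group and rats 1 and 2 of the vehicle group.

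No member passed in any of the 8 comparisons made, in which 0% to 1.58% of all probe sets passed. The clearest differences were in Cpt1b and in Ppargc1a, which entered the test only through its level in rats without E2. All E2 rats were below all vehicle rats for both, as they were for 8.05% of probe sets, but neither reached the adjusted threshold, and both genes were highest in the arrays with much muscle signal. The values of Ucp1, the gene that defines the brown adipocyte, overlapped across all 4 groups. Relatives of the members did change. In the comparison of all rats given E2 with all rats not given it, Ucp2 and Cpt1a rose. Elovl6, Pparg and the thermogenic gene Otop1 fell, although Otop1 entered the test only through rats without E2. Of these 5 calls, all but that of Elovl6 were lost without single rats or without the arrays of high muscle signal, with no change of direction.

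**Figure D1:**
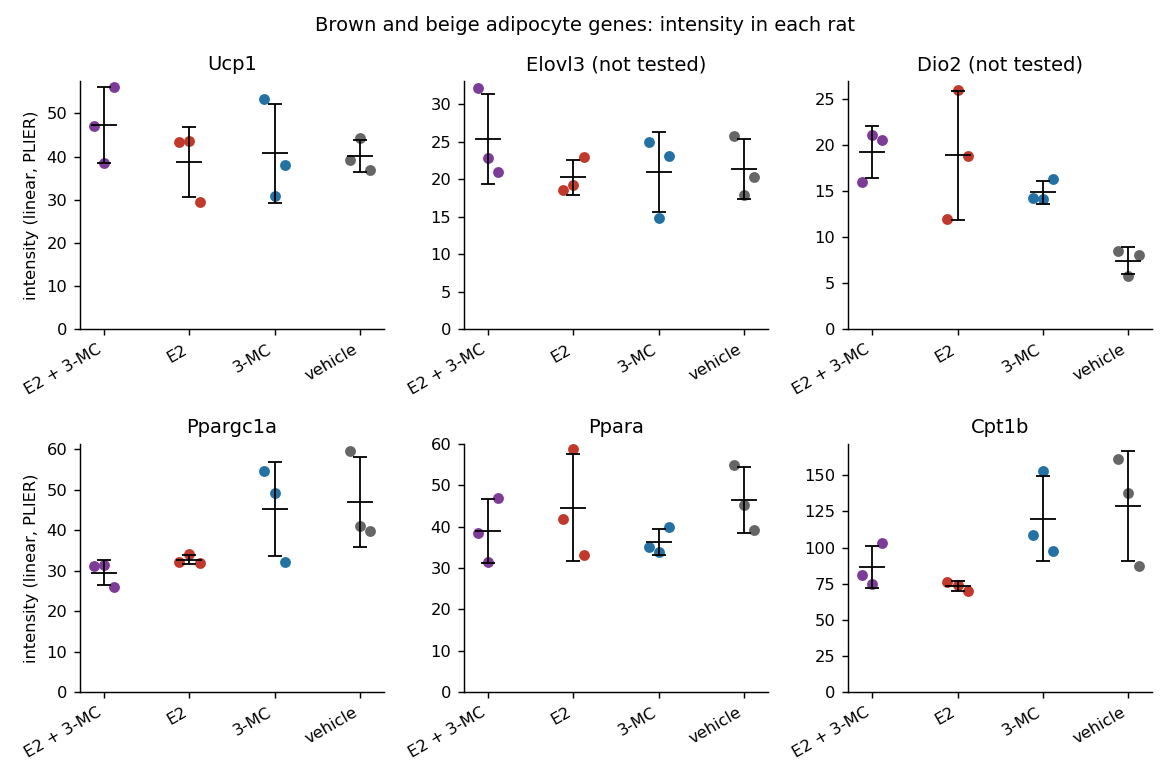
Intensity of the 6 members with a probe set (vertical axis, linear) in each of the 12 rats, by treatment group (horizontal axis); points are rats, and the horizontal mark and bars are the group mean and SD of 3 rats. Ucp1, Elovl3 and Ppara overlap in all groups, the 3 E2 rats of Cpt1b (69.8 to 76.3) and Ppargc1a (31.9 to 34.1) lie below the vehicle rats, and Dio2 is lowest in the 3 vehicle rats (5.74 to 8.54).

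Promoter letters of a pair of members are shown because 3-MC acts through a factor with a known DNA motif and because cyclic AMP is the signal that induces the brown fat program. RefSeq (build GRCr8) lists 250 bases before a start of the gene for 7 of the 8 members, all but Cpt1b. The windows are chr19:41721422-41721671 on the minus strand for Ucp1 and chr14:63634058-63634307 on the plus strand for Ppargc1a. The Ppargc1a window lies inside the listed span of that gene, 63073505 to 63729215, so it precedes an internal start. Capitals mark, in Ucp1, the core TGACG of the cyclic AMP response element and CACGC, which is GCGTG, the core bound by AHR with its partner ARNT, on the other strand, and in Ppargc1a the whole palindromic cyclic AMP response element TGACGTCA.
Ucp1: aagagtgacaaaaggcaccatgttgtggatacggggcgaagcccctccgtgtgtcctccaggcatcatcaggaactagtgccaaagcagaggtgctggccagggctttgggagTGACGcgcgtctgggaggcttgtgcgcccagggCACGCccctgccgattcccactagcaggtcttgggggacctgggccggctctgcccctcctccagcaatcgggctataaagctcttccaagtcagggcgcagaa
Ppargc1a: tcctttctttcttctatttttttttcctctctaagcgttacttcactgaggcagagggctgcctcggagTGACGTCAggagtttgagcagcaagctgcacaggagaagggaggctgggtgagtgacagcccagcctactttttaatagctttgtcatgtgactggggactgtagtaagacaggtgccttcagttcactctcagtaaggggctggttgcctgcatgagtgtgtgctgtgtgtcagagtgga

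Searched on both strands, GCGTG was present in the windows of Ucp1 (1 match, at position -104 from the start), Cidea (2 matches) and Ppara (5 matches), and in 25.9% of all 33469 rat promoter windows of the same length. The full element TGACGTCA was present in Ppargc1a, at position -181 from its internal start, and in 1.59% of all windows. Its core TGACG, which is contained in the full element, was present in Ucp1 and Ppargc1a and in 18.2% of windows. The consensus estrogen response element (GGTCA and TGACC with 3 bases between) and the element of the PPAR receptors (AGGTCA, 1 base and AGGTCA again) were in none of the 7 windows, and in 0.0239% and 0.0508% of all windows. These matches describe the letters only. Of the members with GCGTG, Ucp1 and Ppara were measured, and neither passed in 3-MC-treated rats against vehicle-treated rats. In that comparison 0% of all probe sets passed, so it does not bear on the motif.

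Ucp1 encodes the uncoupling protein that makes the heat. Its intensities were 47.1, 38.5 and 56.1 in the E2 + 3-MC rats, 43.4, 43.6 and 29.5 in the E2 rats, 53.3, 30.9 and 38.0 in the 3-MC rats and 39.1, 44.3 and 37.0 in the vehicle rats. All 4 groups overlapped, and the single highest value was that of E2 + 3-MC rat 3. The log2 change was -0.04 for E2 against vehicle (95% confidence interval -0.40 to 0.32, adjusted p = 0.958 in limma), 0.00 for 3-MC against vehicle (-0.36 to 0.36) and 0.16 for E2 + 3-MC against vehicle (-0.20 to 0.53). None of these intervals reaches 0.58, which is 1.5-fold on the log2(intensity + 16) scale, but the ratio of intensities that they allow is larger. Ucp1 lies close to the filter on low signals, an intensity of about 35.5.

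Ppargc1a encodes PGC-1α, the coactivator that drives mitochondrial biogenesis and Ucp1 transcription. Its intensities were 31.1, 31.4 and 25.9 in the E2 + 3-MC rats, 32.2, 34.1 and 31.9 in the E2 rats, 54.6, 49.1 and 32.2 in the 3-MC rats and 59.7, 41.1 and 39.8 in the vehicle rats. Every rat given E2, with or without 3-MC, was below every vehicle rat. Of all probe sets, 8.05% lay below vehicle without overlap with E2 and 3.68% with E2 + 3-MC. The share with both was not counted. The 3-MC group, which had no E2, reached down to 32.2 in rat 3 and overlapped the E2 group. Ppargc1a was 1.28-fold lower with E2 than with vehicle (log2 change -0.35 ± 0.16 SE, unadjusted p = 0.0444, adjusted p = 0.403 in limma) and 1.37-fold lower with E2 + 3-MC than with vehicle (-0.45 ± 0.16, adjusted p = 0.422). The E2 main effect was -0.38 ± 0.11 (unadjusted p = 0.00459, adjusted p = 0.124), with an interval of -0.63 to -0.14. All 6 values of rats given E2 and that of 3-MC rat 3 lie under the filter of 35.5. Ppargc1a, with a mean intensity of 38.6, therefore entered the test only through its level in rats without E2, and the size of its change rests on signals that weak. The main effect did not pass, and over 25 alternative settings its log2 change was -0.53 to -0.14 and its adjusted p 0.0468 to 0.804. The lowest p, without 3-MC rat 3, came with a change of -0.47, under 1.5-fold.

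Ppara encodes PPARα, the nuclear receptor that turns on genes of fatty acid oxidation. Its intensities were 38.4, 31.4 and 46.8 in the E2 + 3-MC rats, 41.9, 58.6 and 33.2 in the E2 rats, 34.9, 33.9 and 39.8 in the 3-MC rats and 54.9, 45.1 and 39.2 in the vehicle rats. The highest value was in an E2 rat and the lowest in an E2 + 3-MC rat, and all groups overlapped. Its largest log2 change against vehicle was that of 3-MC, at -0.25 (95% confidence interval -0.61 to 0.11, adjusted p = 0.920 in limma), and the E2 main effect was 0.00 (-0.25 to 0.26).

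Cpt1b encodes the muscle and brown fat form of carnitine palmitoyltransferase 1, which admits long-chain fatty acids to the mitochondrion. Its intensities were 81.3, 75.0 and 103 in the E2 + 3-MC rats, 76.3, 74.1 and 69.8 in the E2 rats, 109, 153 and 97.9 in the 3-MC rats and 162, 138 and 87.0 in the vehicle rats. The 3 E2 rats were close together and below all vehicle rats, while the vehicle rats spread widely. The means were 73.4 ± 3.28 with E2 and 129 ± 38.2 with vehicle (SD, n = 3 rats each). Cpt1b was 1.58-fold lower with E2 than with vehicle (log2 change -0.66 ± 0.20 SE, unadjusted p = 0.00541), past the fold threshold, but its adjusted p was 0.148 in limma. With E2 + 3-MC it was 1.39-fold lower than with vehicle (-0.47 ± 0.20, adjusted p = 0.476), and those groups overlapped. The E2 main effect was -0.53 ± 0.14 (unadjusted p = 0.00229, adjusted p = 0.0860). Vehicle rat 3 had the lowest intensity of its group, and without it Cpt1b passed, at -0.89 (adjusted p = 0.0271, range 0.0271 to 0.926 over the alternatives) for E2 against vehicle and at -0.64 (adjusted p = 0.0164, range 0.0164 to 0.829) for the E2 main effect.

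Dio2 encodes the deiodinase that makes active thyroid hormone inside brown adipocytes. Its intensities were 16.04, 21.1 and 20.6 in the E2 + 3-MC rats, 11.9, 26.0 and 18.8 in the E2 rats, 14.2, 14.1 and 16.3 in the 3-MC rats and 8.54, 5.74 and 8.12 in the vehicle rats. Each of the 9 treated rats was above all 3 vehicle rats. All these values are under the filter of 35.5, where signals are weak, so Dio2 had no test in the main model and its log2 change is given as a description, 0.59 with E2 + 3-MC, 0.56 with E2 and 0.40 with 3-MC against vehicle. At signals this weak the pseudocount of 16 sets the size: with a pseudocount of 1 the changes were 1.27, 1.19 and 0.92, and with 32 they were 0.38, 0.36 and 0.25, in the same order of groups. When no filter was applied, the adjusted p of these differences in limma was 0.238 with E2 + 3-MC, 0.101 with E2 and 0.929 with 3-MC. Dio2 was the only one of the 6 members that lay above vehicle without overlap in any group, and among all tested probe sets 10.1% did so with E2, 4.71% with 3-MC and 10.5% with E2 + 3-MC.

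Elovl3 encodes an elongase of very long chain fatty acids that is induced by cold in brown fat of mice. Its intensities were 32.2, 22.8 and 21.0 in the E2 + 3-MC rats, 18.6, 19.2 and 22.9 in the E2 rats, 24.9, 14.9 and 23.1 in the 3-MC rats and 25.7, 17.9 and 20.3 in the vehicle rats. All groups overlapped and all 12 values were under the filter. With no filter, Elovl3 had an adjusted p of 0.966 in limma for E2 against vehicle.

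Ordered by group mean, neighbouring groups did not separate for most members. From low to high, the order for Cpt1b was E2 (73.4), E2 + 3-MC (86.4), 3-MC (120) and vehicle (129), and each group overlapped the next. For Ppargc1a it was E2 + 3-MC (29.5), E2 (32.7), 3-MC (45.3) and vehicle (46.9), where only the lowest pair did not overlap, at 25.9 to 31.4 with E2 + 3-MC and 31.9 to 34.1 with E2. For 5.93% of all probe sets E2 + 3-MC likewise lay below E2. That difference of Ppargc1a was -0.10 ± 0.16 on the log2 scale (adjusted p = 0.889 in limma). The means of Dio2 were 19.3 with E2 + 3-MC, 18.9 with E2, 14.9 with 3-MC and 7.47 with vehicle, and only the lowest group stood apart from its neighbour. The means of Ucp1 were 47.3 with E2 + 3-MC, 38.8 with E2, 40.8 with 3-MC and 40.2 with vehicle, all overlapping.

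Counted over the 4 tested members, E2 against vehicle gave 0 calls in limma (1.58% of all probe sets did), and 2, Ppargc1a and Cpt1b, were lower at an unadjusted p under 0.05 (4.89% of all probe sets were), a count that includes Ppargc1a although it entered the test only through rats without E2. The same 2 lay below vehicle without overlap, as did 8.05% of all probe sets. By the methods' t-test, unadjusted and with the same fold threshold, 1 of the 4 passed, Cpt1b. The share of all probe sets that passed this way is not given here, so that count cannot be weighed. The median log2 change of the 4 members was -0.21, beside 0.02 over all probe sets. For E2 + 3-MC against vehicle 0 passed (0.163% of all probe sets), and the same 2 genes were lower at an unadjusted p under 0.05 (2.73%). Ppargc1a was also below vehicle without overlap there, as were 3.68% of probe sets. The E2 main effect gave 0 that passed (1.12%) and again these 2 at an unadjusted p under 0.05 (5.71% lower). In these counts too, Ppargc1a entered the test only through rats without E2. The comparisons share their rats and are not separate evidence.

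With 3-MC against vehicle, limma called 0 of the 4 members, 0 of them had an unadjusted p under 0.05, and 0 passed by the methods' t-test. Over all probe sets 0% passed, while 4.24% had an unadjusted p under 0.05. The log2 change was -0.04 for Ppargc1a (95% confidence interval -0.39 to 0.30) and -0.08 for Cpt1b (-0.51 to 0.35), intervals that stay within 1.5-fold on that scale. With E2 + 3-MC against E2, again 0 passed by either test and 0 had an unadjusted p under 0.05 (0% and 8.77% of all probe sets). The log2 change was 0.21 for Ucp1 (-0.15 to 0.57), 0.19 for Cpt1b (-0.24 to 0.62) and -0.13 for Ppara (-0.49 to 0.22). The interaction of E2 and 3-MC, which tests whether the effect of E2 differs in the presence of 3-MC, gave 0 of 4 members that passed and 0 at an unadjusted p under 0.05 (0% and 4.42% of all probe sets). E2 + 3-MC against 3-MC gave 0 that passed (0.111%) and 1 lower at an unadjusted p under 0.05, Ppargc1a (2.22% lower). Its groups did not overlap (3.48% of probe sets lay below likewise), but it entered the test only through rats without E2. The 3-MC main effect gave 0 and 0 (0% and 9.47%).

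**Figure D2:**
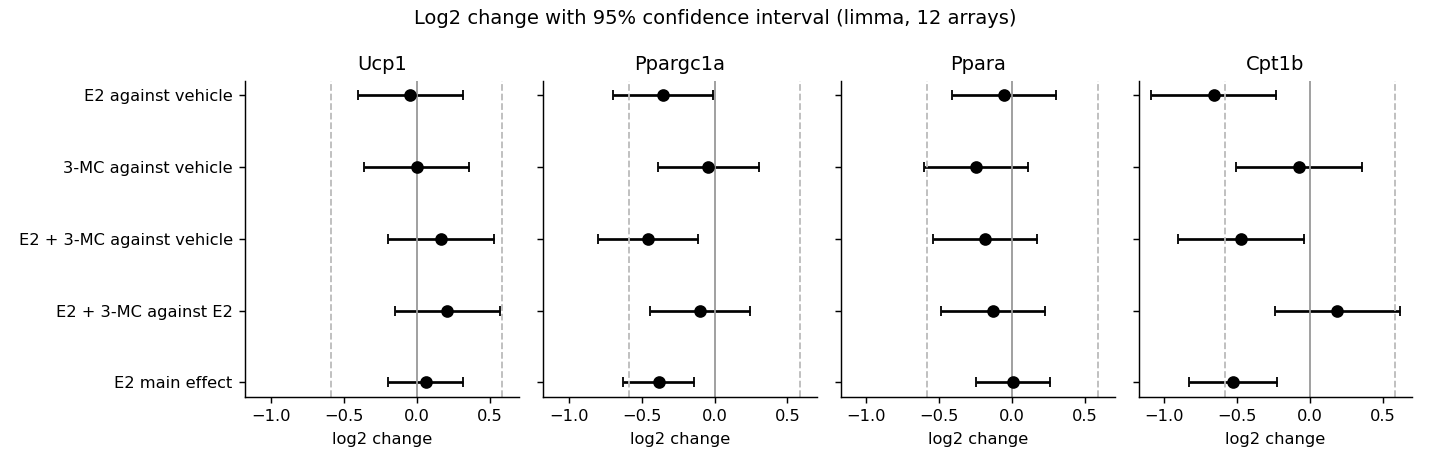
Log2 change (horizontal axis) of the 4 tested members in 5 comparisons (vertical axis), with the 95% confidence interval of limma over 12 arrays; the solid line is no change and the dashed lines are 1.5-fold. The intervals of Ucp1 and Ppara include 0 throughout, and those of Ppargc1a and Cpt1b lie below 0 for E2 against vehicle, E2 + 3-MC against vehicle and the E2 main effect, where no adjusted p was under 0.05.

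Skeletal muscle genes varied widely between the arrays. The muscle level, the median over 20 muscle genes of the log2 difference from the mean of 12 arrays, was 1.996 and 2.67 in 3-MC rats 1 and 2 and 2.63 and 3.07 in vehicle rats 1 and 2. The other 8 arrays lay between -2.24 and 0.62. Acta1, the actin of skeletal muscle fibres, had intensities of 263, 519 and 136 in the E2 + 3-MC rats, 1345, 220 and 918 in the E2 rats, 3131, 5412 and 84.2 in the 3-MC rats and 4223, 6979 and 103 in the vehicle rats. Tnnc2, Tnnt3 and Myl1, which encode a troponin C, a troponin T and a myosin light chain of fast fibres, were also highest in the same 4 arrays. The 20 muscle genes summed 1240 to 3087 with E2 + 3-MC, 1681 to 9890 with E2, 1056 to 36885 with 3-MC and 937 to 50413 with vehicle, and Tnnc2 was as low as 39.2 in 3-MC rat 3 and 10.7 in vehicle rat 3. Of the 20 muscle genes, 0 passed for E2 against vehicle, with a median log2 change of -1.46. Before adjustment 1 was lower at p under 0.05 (4.89% of all probe sets). In the E2 main effect 0 passed and 7 were lower at an unadjusted p under 0.05 in limma (5.71% of all probe sets, median -1.84). With E2 + 3-MC against vehicle 0 passed and 6 were lower (2.73% of all probe sets, median -2.45). All 4 arrays of high muscle level came from rats without E2, so E2 and the muscle level were partly aligned.

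Cpt1b and Ppargc1a followed that division of the arrays, and the other 4 members did not. The share of all probe sets that follow it was not counted, so whether this is unusual cannot be told. Cpt1b had 109 to 162 in the 4 arrays of high muscle level and 69.8 to 103 in the other 8. Ppargc1a had 41.1 to 59.7 in the 4 arrays and 25.9 to 39.8 in the 8. The ranges of Ucp1 (30.9 to 53.3 and 29.5 to 56.1), Ppara (33.9 to 54.9 and 31.4 to 58.6), Elovl3 and Dio2 overlapped. Cox8b, a subunit of cytochrome c oxidase that brown fat shares with heart and skeletal muscle in rodents, had 2028 to 4386 in the 4 arrays and 30.1 to 431 in the 8.

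Within the 3-MC and vehicle groups the third rat had little muscle signal, and it also had the lowest Cpt1b (97.9 in the 3-MC rat and 87.0 in the vehicle rat) and the lowest Ppargc1a (32.2 and 39.8). When the 4 arrays were left out, the log2 change of Cpt1b was -0.20 for E2 against vehicle and -0.18 for the E2 main effect, and that of Ppargc1a was -0.20 and -0.14. The adjusted p of these 4 values was 0.744 to 0.849 in limma, with 1 rat left in the 3-MC group and 1 in the vehicle group, each assumed to vary like the other groups. With the muscle level as a covariate over all 12 arrays, the E2 main effect was -0.35 for Cpt1b and -0.26 for Ppargc1a (adjusted p = 0.322 and 0.450). The part of muscle tissue in these differences was not tested.

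**Figure D3:**
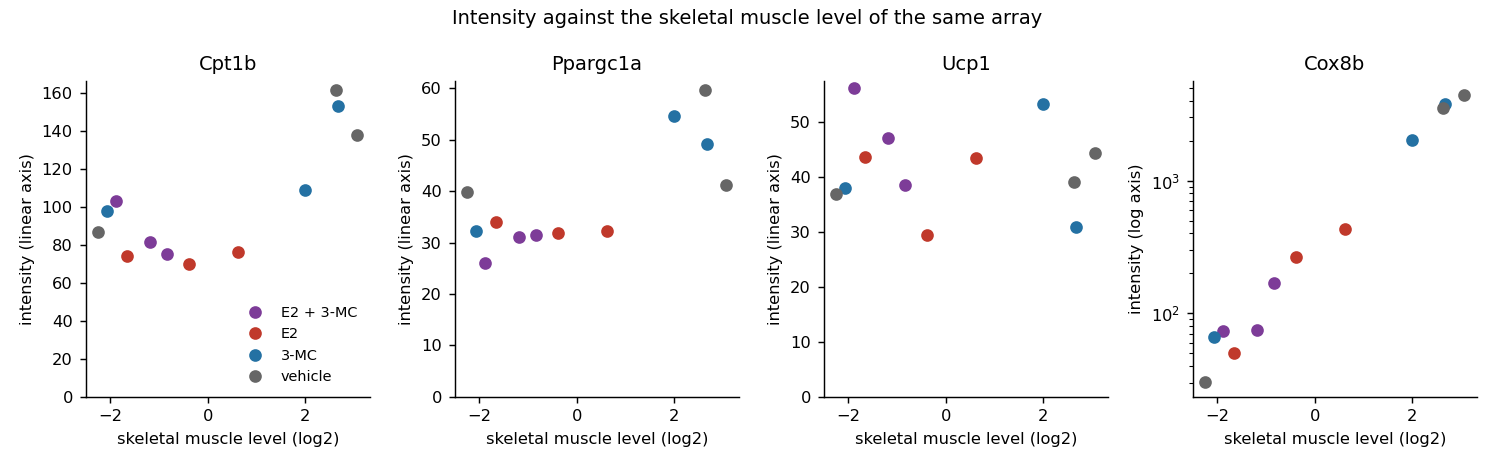
Intensity of Cpt1b, Ppargc1a, Ucp1 and Cox8b (vertical axes, linear for the first 3 and logarithmic for Cox8b) against the skeletal muscle level of the same array (horizontal axis, log2), each point 1 of 12 rats coloured by group. The 4 arrays at a level of 1.996 to 3.07 hold the highest Cpt1b, Ppargc1a and Cox8b values, while Ucp1 has no such order.

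The 12 arrays form 2 clusters of muscle level, so no correlation over all of them is given. Over the 8 arrays of the lower cluster, from all 4 groups, the correlation of Cpt1b with the muscle level was r = -0.65 (exact permutation p = 0.0531, adjusted over the 6 members 0.318) and Spearman's rho = -0.67 (exact permutation p = 0.0831, adjusted 0.499), the opposite sign of the division between the clusters. Without the 2 arrays farthest from the median level, E2 rats 1 and 3, r was -0.65. For Ucp1, Ppargc1a, Dio2, Elovl3 and Ppara, r lay between -0.31 and -0.04 and rho between -0.29 and 0.12, with exact permutation p of 0.458 or more.

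Beyond the members, 30 other genes known from brown or beige fat were listed, of which 25 had a probe set and 24 were tested. With E2 against vehicle limma called 0 (1.58% of all probe sets). Before adjustment 3 were higher and 6 lower at p under 0.05, where 4.89% of all probe sets were lower. The share that was higher is not given here. The median log2 change was -0.03 (0.02 over all probe sets). The E2 main effect gave 1 that passed (1.12% of all probe sets), Otop1. In E2 + 3-MC or 3-MC against vehicle 0 passed (0.163% and 0%). Otop1 encodes otopetrin 1, a proton channel reported in thermogenic fat of mice. Its intensities were 19.8, 35.5 and 28.1 in the E2 + 3-MC rats, 38.7, 29.99 and 18.5 in the E2 rats, 33.6, 74.4 and 76.9 in the 3-MC rats and 70.3, 61.2 and 94.6 in the vehicle rats. The 6 rats given E2 lay at or below 38.7, and of the other 6 only 3-MC rat 1 reached into that range. Otop1 fell by 0.91 on the log2 scale in the E2 main effect (adjusted p = 0.0205 in limma). Its means were 27.8 with E2 + 3-MC and 29.1 with E2, under the filter of 35.5, and 61.6 with 3-MC and 75.3 with vehicle, so it entered the test only through the rats without E2 and the size of the change is uncertain. Leaving out E2 rat 2, E2 rat 3 or E2 + 3-MC rat 1 ended the call, the largest adjusted p being 0.0628, and it held without the 4 arrays of high muscle level (-1.21, adjusted p = 0.00481). With the white adipocyte level of each array as a covariate the change was about as large but did not pass (-0.89, adjusted p = 0.246).

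Ebf2, an early transcription factor of the brown and beige lineage, had a log2 change of -0.40 in the E2 main effect (unadjusted p = 0.00532, adjusted p = 0.135 in limma), and Adrb3, the β3-adrenergic receptor of rodent fat, -0.45 for E2 against vehicle (adjusted p = 0.276). In the other direction, Bmp7, a growth factor that promotes brown adipocyte formation in mice, was 1.64-fold higher with E2 than with vehicle (log2 change 0.71, unadjusted p = 0.00571, adjusted p = 0.153), and Gk, the glycerol kinase, had a log2 change of 0.51 (adjusted p = 0.0462), under 1.5-fold. Of the 24 tested genes of the list, 12 had a negative and 12 a positive change for E2 against vehicle. These 4 genes are named here after their values were seen. Of 9 genes of adrenergic input, 8 were tested and 0 passed for E2 against vehicle or the E2 main effect. At an unadjusted p under 0.05, 1 was lower in each (4.89% and 5.71% of all probe sets). It was Prkar2b, a regulatory subunit of protein kinase A. Tmem26 and Tnfrsf9, surface markers of beige cells in mice, had log2 changes of -0.23 and 0.59 in the E2 main effect (adjusted p = 0.350 and 0.0638), and they too were chosen after their values were seen.

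Close relatives of Ucp1, Cpt1b and Elovl3 passed the test with E2, and whether their response differed from that of the members was not tested. Each call of a listed gene for E2 against vehicle, here and below, was lost by the methods' t-test with adjustment. Ucp2, an uncoupling protein of many tissues that is not the heat-making one, had intensities of 2636, 2870 and 3323 in the E2 + 3-MC rats, 3330, 2930 and 2924 in the E2 rats, 2068, 1647 and 2276 in the 3-MC rats and 1370, 1606 and 2157 in the vehicle rats. All 6 rats given E2 were above all 6 without it, a separation whose share among all probe sets was not counted. Ucp2 rose by 0.71 ± 0.12 SE in the E2 main effect (log2, adjusted p = 0.0106 in limma) and was 1.81-fold higher with E2 than with vehicle (adjusted p = 0.0275). The main effect held with each rat left out in turn (adjusted p up to 0.0396) and fell under the thresholds without the 4 arrays of high muscle level (0.43, adjusted p = 0.177) or with the muscle level as a covariate (0.56, under 1.5-fold). With the white adipocyte level as a covariate it was 0.65 (adjusted p = 0.221). The call for E2 against vehicle was lost without any 1 of the 3 E2 rats or vehicle rat 1 or 2. Of 6 other mitochondrial carriers listed with Ucp1, Ucp2 was the 1 that passed, and Ucp3, the form of skeletal muscle, had a log2 change of 0.16 in the main effect.

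Cpt1a, the form of carnitine palmitoyltransferase 1 found in liver and most other tissues, ran opposite to Cpt1b in sign. Its intensities were 350, 359 and 370 in the E2 + 3-MC rats, 402, 358 and 376 in the E2 rats, 331, 160 and 271 in the 3-MC rats and 175, 221 and 244 in the vehicle rats. The rats given E2 were all above the others, and how many probe sets separate this way was not counted. Cpt1a rose by 0.66 ± 0.14 on the log2 scale in the E2 main effect (adjusted p = 0.0356 in limma), a call lost in 9 of the 12 fits that each left out 1 rat (adjusted p up to 0.0993) and without the 4 arrays of high muscle level (0.49, adjusted p = 0.0702). Of 12 genes of the carnitine shuttle and fatty acid oxidation, Cpt1a alone passed in the E2 main effect and 0 passed for E2 against vehicle.

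Elovl6 encodes an elongase that lengthens palmitate in lipid synthesis. Its intensities were 158, 177 and 159 in the E2 + 3-MC rats, 85.9, 103 and 107 in the E2 rats, 412, 402 and 415 in the 3-MC rats and 339, 148 and 620 in the vehicle rats. The 3-MC rats were nearly alike, the vehicle rats spread widely, and vehicle rat 2 alone reached into the range of the rats given E2. Elovl6 fell by 1.39 ± 0.23 on the log2 scale in the E2 main effect (adjusted p = 0.00811 in limma), and the call held in all 26 alternatives run (adjusted p of 6.58e-06 to 0.0315). For E2 against vehicle it was 2.92-fold lower (adjusted p = 0.0330), a call lost without vehicle rat 1, any 1 of the E2 rats, or E2 + 3-MC rat 2 or 3. Elovl2 and Elovl5, the other elongases with a probe set, had log2 changes of -0.23 and -0.22 in the main effect and did not pass.

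**Figure D4:**
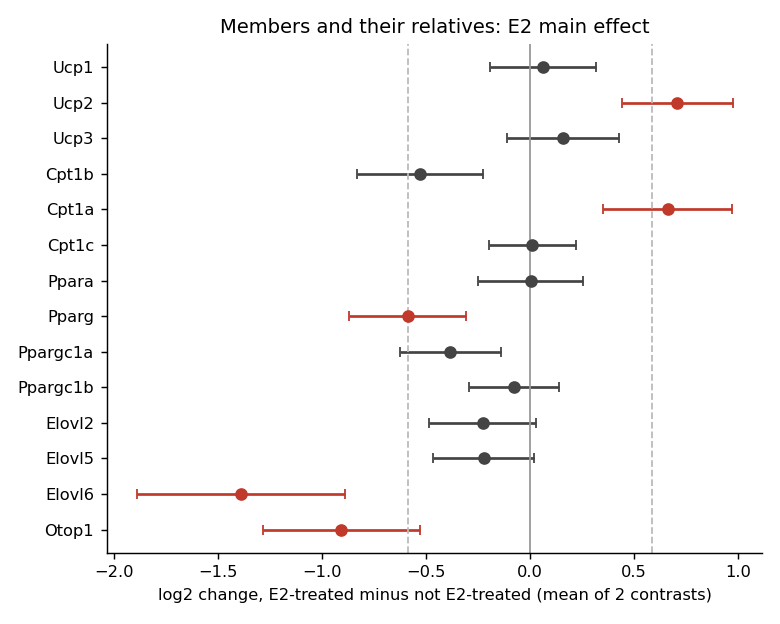
Log2 change of the tested members and named relatives in the E2 main effect (horizontal axis), with 95% confidence intervals over 12 arrays; genes are on the vertical axis, red points passed the test, dark points did not, and the dashed lines are 1.5-fold. Ucp2 (0.71) and Cpt1a (0.66) lie to the right, and Elovl6 (-1.39), Otop1 (-0.91) and Pparg (-0.59) to the left.

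Pparg, the master regulator of adipocyte formation and a partner of PRDM16, had intensities of 424, 365 and 563 in the E2 + 3-MC rats, 281, 314 and 330 in the E2 rats, 445, 609 and 449 in the 3-MC rats and 783, 635 and 528 in the vehicle rats. The E2 rats were below all others, and the share of probe sets that do so was not counted. Pparg was 2.03-fold lower with E2 than with vehicle (log2 change -1.02, adjusted p = 0.0157 in limma), a call that ended when vehicle rat 1, E2 rat 1 or E2 rat 2 was omitted (0.0852 at most) and without the 4 arrays of high muscle level (-0.75, adjusted p = 0.164). In the E2 main effect it fell by 0.59 (adjusted p = 0.0410), just past 1.5-fold, and 9 of the 12 fits without 1 rat lost that call. It was the 1 of 8 tested partners and regulators of PRDM16 that passed, while the coactivator Ppargc1b, the paralog of Ppargc1a, had a log2 change of -0.08 in the main effect (adjusted p = 0.862). Thrsp, a thyroid hormone-responsive gene of lipid synthesis, was 1.65-fold lower with E2 than with vehicle (adjusted p = 0.0190), and without vehicle rat 1 or 3 or E2 rat 2 or 3 it did not pass. Acsl1, an acyl-CoA synthetase and target of PPARα, fell by 0.63 in the E2 main effect (adjusted p = 0.0404) and was the 1 of 9 tested target genes that passed, but 8 of the 12 fits without 1 rat lost the call. It ran against the rest of that list, of which 7 of 9 had a positive change in the main effect (median log2 change 0.12, beside 0.02 over all probe sets) and 2 were higher at an unadjusted p under 0.05.

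Some white adipocyte genes also fell. Of 13 markers of white adipocytes, 3 passed and were lower with E2 than with vehicle, Pparg, Retn (the hormone resistin) and Lpl (lipoprotein lipase). Before adjustment, 8 of the 13 were lower at p under 0.05 in limma. Over all probe sets 1.58% passed for E2 against vehicle, and 4.89% were lower at an unadjusted p under 0.05. These shares also belong beside the counts of the other cell types below. Retn had intensities of 347, 338 and 443 in the E2 + 3-MC rats, 256, 319 and 365 in the E2 rats, 1143, 1287 and 799.6 in the 3-MC rats and 1150, 934 and 862 in the vehicle rats. Every rat given E2 lay below every rat without it, and the share of probe sets with such a separation was not counted. Retn also passed in E2 + 3-MC against vehicle (-1.35, adjusted p = 0.00829 in limma) and in E2 + 3-MC against 3-MC (-1.46, adjusted p = 0.00396), but without the 4 arrays of high muscle level neither passed, at -1.17 (adjusted p = 0.0687) and -1.07 (adjusted p = 0.145), changes still over 1.5-fold, and omitting rat 1 of the E2 + 3-MC group or rat 1 of the vehicle group ended the first. The summed intensity of the 13 markers was 21420 to 24752 with E2 and 26767 to 31909 with vehicle. Luminal epithelial genes moved the other way, with 5 of 10 higher (Krt18, Cdh1, Cldn3, Cldn7 and Foxa1), and summed 7822 to 10015 with E2 and 5126 to 5770 with vehicle. Endothelial genes summed 2506 to 2896 with E2 and 3324 to 4376 with vehicle, though limma called 0 of 7 (before adjustment, 7 were lower at p under 0.05). Of 8 genes of fibroblasts and matrix limma called 0, while before adjustment 4 were lower and 1 was higher at p under 0.05 (median log2 change -0.49). Of 8 macrophage genes 7 had a negative change (median log2 change -0.42), none of which passed, and Cd14 alone passed and was higher. The 8 genes summed 4040 to 4928 with E2 and 3203 to 7819 with vehicle. The 6 calls of epithelial genes and Cd14 were each lost in 1 to 7 of the 12 fits without 1 rat, and that of Lpl in 5. By the methods' t-test with adjustment, every listed gene called for E2 against vehicle lost that call, Retn included. Retn also lost its calls for E2 + 3-MC against vehicle and against 3-MC by that test. The calls for E2 against vehicle were lost with the white adipocyte level as a covariate as well. The part of these cell types in the results for Ppargc1a and Cpt1b was not tested. With the white adipocyte level as a covariate, the change for E2 against vehicle was -0.19 for Cpt1b and -0.42 for Ppargc1a. Neither passed (adjusted p = 0.926 and 0.727 in limma). That level was -0.35 to -0.16 in the E2 rats and 0.03 to 0.29 in the vehicle rats, so it separates these groups by itself.

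Genes whose log2 values were most like those of each member over the 12 arrays were ranked among 12419 or 12420 other genes by Pearson correlation, as a description in which the points share their treatment groups and muscle content. For Cpt1b they were Lrrc39 (r = 0.97), Usp13 (0.96) and Cryab (0.96), and for Ppargc1a Itgbl1 (0.93), Mmp27 (0.91) and Ccn3 (0.91). For Ucp1 they were Rrh (0.91), Ddx56 (0.90) and Or2h15 (0.90). Elovl3 was most like Rhobtb2 (0.93), Dio2 most like Cenpw (0.92) and Ppara most like Zfyve9 (0.80), which was the weakest of these likenesses.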

How the data were processed

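Total RNA of mammary gland tissue from 12 rats was hybridised to Affymetrix Rat Gene 1.0 ST arrays. The labels name Affymetrix Expression Console and PLIER. The study's methods give Expression Console for quality checks, then GeneSpring for quantile normalization with PLIER and a transformation to the control median. The deposited values are probe set intensities on a linear scale, with array medians of 85.7 to 109.5. Versions of Expression Console and PLIER are not given in the sources used here. Of 29214 probe sets, 15310 carry 1 gene symbol, 323 several and 13581 none in the platform annotation.

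A pseudocount of 16 was added before the log2 transformation, and probe sets with a mean above the 20th percentile (5.69, an intensity of 35.5) were tested with limma 3.58.1 in R 4.3.3 as a model of 4 group means, with 8 comparisons, Benjamini-Hochberg adjustment and a 1.5-fold minimum. The fit was tested on simulated data. By the planned rule, named genes were all members, the genes of 15 other lists that passed in any comparison, the 4 muscle genes of highest intensity and, for each member, the 3 genes most like it. Other genes were named outside this rule, among them Cox8b, Ebf2, Adrb3, Bmp7, Gk, Tmem26, Tnfrsf9, Prkar2b, Ucp3, Ppargc1b, Elovl2 and Elovl5. Members and lists were chosen with earlier results of these data known. The correlation with the muscle level was planned over 12 arrays and is given over 8 because the arrays formed clusters. Python 3.11.15 (scipy 1.17.1) gave exact permutation tests, two-sided. The number of arrays limits the precision.

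Same-numbered rats of the 3-MC and vehicle groups deviated together (correlations 0.341, 0.442 and 0.564), although the labels give no shared litter or day, whereas in no other pair of groups did all 3 correlations exceed 0.1. With the replicate number as a block the counts of members that passed stayed at 0. Alternatives covered filters, pseudocounts, scaling, weights, covariates, the methods' t-test and leaving out each rat.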

Additional observations from a re-analysis of the deposited data

How the results depend on the processing

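No member passed in any comparison under any setting, with 3 exceptions, all of Cpt1b with E2: 1 member passed by the methods' t-test without adjustment, and 0 to 1 when each rat was left out in turn, for E2 against vehicle and for the E2 main effect (1 without vehicle rat 3). The share of all probe sets that passed in those settings is not given here. Of the changes of single members, those that turned sign stayed under 1.5-fold in every setting, and the cause was not tested. Elovl3 and Dio2, which had no test in the main model, also crossed 0. Over the alternatives Elovl3 was -0.22 to 0.045 for E2 against vehicle and -0.098 to 0.11 for 3-MC against vehicle. Its E2 main effect was -0.051 to 0.10. Dio2 was -0.12 to 0.17 for E2 + 3-MC against E2. For E2 against vehicle, Ucp1 was 0.011 with array weights and 0.038 without the 4 arrays of high muscle level, and Ppara was 0.050 with array weights, 0.049 with the white adipocyte level as a covariate and 0.11 without those 4 arrays. For 3-MC against vehicle, Ucp1 was 0.0021 with a pseudocount of 32, 0.0015 with array weights, 0.00099 with the muscle level as a covariate and 0.029 without the 4 arrays, Cpt1b was 0.015 with the white adipocyte level and 0.15 without the 4 arrays, and Ppara was 0.018 without them. For E2 + 3-MC against E2, Cpt1b was -0.086 with the white adipocyte level. The E2 main effect of Ppara was -0.052 after quantile normalization again, -0.035 with arrays centred on their medians and -0.013 with the muscle level. With each rat left out, the ranges for E2 against vehicle were -0.11 to 0.086 for Ucp1 and -0.22 to 0.083 for Ppara. For 3-MC against vehicle they were -0.15 to 0.13 for Ucp1, -0.15 to 0.12 for Ppargc1a and -0.30 to 0.090 for Cpt1b, for E2 + 3-MC against E2 -0.27 to 0.030 for Ppara, and for the E2 main effect -0.0029 to 0.14 for Ucp1 and -0.077 to 0.073 for Ppara. The correlation with the muscle level over 8 arrays turned sign without the 2 farthest arrays for Ucp1 (0.063), Dio2 (0.48) and Elovl3 (0.50), with a pseudocount of 1 for Dio2 (0.010), after quantile normalization again for Ppargc1a (0.061), Dio2 (0.038) and Elovl3 (0.081), and with centred arrays for Ppargc1a (0.0020), Dio2 (0.022) and Elovl3 (0.0099). With the replicate number as a block, the change of Cpt1b for E2 against vehicle stayed at -0.66 (adjusted p = 0.132 in limma), 0 members passed, and of the related genes Pparg and Acsl1 lost their call in the E2 main effect (adjusted p = 0.0564 and 0.0541). With the white adipocyte level as a covariate, 7 of the 9 listed genes called in the E2 main effect no longer passed. Elovl6 and Retn were the exceptions. None turned sign, and Otop1 (-0.89), Ucp2 (0.65) and Foxa1 (0.65) kept changes over 1.5-fold. That level is a median over markers that include Pparg, Lpl and Retn, so these genes were adjusted for a level they help define. It also did not overlap between E2 and vehicle rats, so the covariate takes up part of that difference.

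The block over only the 3-MC and vehicle arrays and the fit without the 4 arrays of high muscle level were chosen after seeing the data. No member had a second probe set to try, and subtracting group means before the correlation was not run because the arrays form clusters. Signals near or under the filter of 35.5, those of Ucp1, Dio2, Elovl3, in part Ppara, and Ppargc1a and Otop1 in rats given E2, limit what was detectable, and 3 rats a group limit the precision throughout. The muscle level and E2 are partly aligned in these 12 arrays.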
